A study of Mus musculus with 12 samples.

Results

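The genes described here are the cytochrome P450 genes of families 1, 2 and 3, together with the steroid hydroxylase gene Cyp17a1, in mouse liver. Members were all genes whose platform symbol is Cyp followed by 1, 2 or 3, a subfamily letter and a number, plus Cyp17a1. Only probe sets with 1 symbol counted, and Cyp2b9, Cyp2b10, Cyp2b13, Cyp2d9 and Cyp3a11 were left out. The rule used no measured difference between groups. It gave 39 of the 18194 genes on the array, from 15 subfamilies. A gene with several probe sets was read by the one with the highest mean over the 12 arrays, which concerned 6 members, and the other 33 had 1 probe set.

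Liver RNA of SV129XC57Bl/6 mice was measured on 12 arrays in 4 groups of 3. The groups were control mice and LG2KO mice, each either fasted or fasted and then refed. LG2KO is read here as loss of the hepatic glucose transporter gene Slc2a2 (Glut2), and the series title places the work in the study of glucose sensing by the liver. Every array carried RNA combined from 3 animals, so n = 3 pools per group throughout. The LG2KO mice are labelled as given tamoxifen and the controls carry no such label, so effects of genotype and of the drug cannot be told apart. Tamoxifen is itself a substrate of P450 enzymes. The promoter that drives the deletion, the age of the mice and their sex are not stated in the labels. The source label of the LG2KO fasted arrays says refed, against their titles and diet labels, which were followed.

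Cytochromes P450 are haem enzymes of the endoplasmic reticulum that insert an oxygen atom into their substrate with electrons passed on by P450 reductase and cytochrome b5. Families 1 to 3 clear drugs, plant compounds and pollutants, and they also oxidise steroids, bile acids and fatty acids. In the liver most of them are made by hepatocytes, many of them mainly around the central vein, under receptors such as AHR, CAR and PXR and liver factors such as HNF4alpha.

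Values are log2 expression values normalised by RMA, and a difference of 1 is a doubling. Slc2a2 averaged 10.64 (fasted) and 10.96 (refed) in controls, and its 6 LG2KO arrays lay at 3.56 to 4.13. Arrays of 1 group correlated at 0.984 to 0.996. Control refed replicate 1 and LG2KO fasted replicate 3 stood apart from their groups, being the array farthest from its group mean for 57.8% and 56.3% of all genes, and for 21 and 20 of the 39 members. The numbers of members that passed are therefore also given without this pair. As the pair was picked by its spread in these same values, leaving it out can narrow the spread. Adjusted p-values without it are therefore descriptions. Hepatocyte markers averaged 13.77 to 13.96 on all arrays, where the highest value of any probe set was 14.57. Whether differences were compressed so near the top of the scale was not tested. Exocrine pancreas markers averaged 8.26 on control fasted replicate 3 against 5.45 to 5.78 elsewhere, with 0 of 7 passing in any comparison. Their median difference was -1.02 in fasted LG2KO against control and -0.89 on refeeding in controls. A high value on 1 of 3 arrays widens the spread, so the lack of passes says little about these markers. Of the markers of other cell types, 1 of 8 for endothelium and 1 of 8 for stellate cells passed in any comparison, and none of 8 for macrophages, 5 for cholangiocytes, 3 for erythroid cells, 4 for adipose tissue and 7 for lymphocytes and neutrophils. A gene passed where limma's moderated test gave a Benjamini-Hochberg adjusted p below 0.05 over all 18194 genes.

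Promoters in RefSeq (GRCm38.p6) were matched for 30 of the 39 members. Those shown, the 250 bases before the annotated start read 5′ to 3′, belong to pairs of neighbouring genes of which, on all 12 arrays, only the first passed in a comparison below. Cyp1a2, which differed between genotypes, lies next to Cyp1a1, which did not pass. Cyp2c70, which rose on refeeding, lies next to Cyp2c50, whose fold changes were negative. Capitals mark matches, on either strand, to 4 motifs. These are TATAAA, where the basal transcription machinery is placed, the box motif CCAAT, which binds the factor NF-Y, the core GCGTG, which is bound by the receptor AHR with its partner, and CAAAGTCCA, a motif of HNF4alpha.
Cyp1a2, chr9:57683656-57683905, minus strand: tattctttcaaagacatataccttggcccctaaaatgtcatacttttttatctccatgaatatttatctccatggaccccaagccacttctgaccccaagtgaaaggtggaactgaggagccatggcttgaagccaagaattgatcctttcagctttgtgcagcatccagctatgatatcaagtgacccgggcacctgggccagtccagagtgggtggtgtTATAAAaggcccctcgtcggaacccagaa
Cyp1a1, chr9:57697363-57697612, plus strand: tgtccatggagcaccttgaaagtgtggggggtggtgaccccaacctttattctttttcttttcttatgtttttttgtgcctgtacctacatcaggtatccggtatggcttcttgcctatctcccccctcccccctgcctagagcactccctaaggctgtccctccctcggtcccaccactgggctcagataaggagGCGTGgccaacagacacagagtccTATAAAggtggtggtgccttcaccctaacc
Cyp2c70, chr19:40187287-40187536, minus strand: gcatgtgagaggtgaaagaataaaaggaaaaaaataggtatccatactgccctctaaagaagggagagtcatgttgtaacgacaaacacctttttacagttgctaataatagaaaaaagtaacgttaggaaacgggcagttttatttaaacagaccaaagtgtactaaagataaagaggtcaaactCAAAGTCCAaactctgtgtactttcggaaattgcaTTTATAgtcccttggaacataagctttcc
Cyp2c50, chr19:40089429-40089678, plus strand: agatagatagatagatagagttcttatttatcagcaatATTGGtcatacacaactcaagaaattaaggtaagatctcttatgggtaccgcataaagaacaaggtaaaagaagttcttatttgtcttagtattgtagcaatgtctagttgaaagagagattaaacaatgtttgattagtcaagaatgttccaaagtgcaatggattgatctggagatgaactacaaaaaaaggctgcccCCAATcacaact
Both Cyp1a windows held TATAAA, at -29 to -24 in Cyp1a2 and at -30 to -25 in Cyp1a1, counted from the start site. GCGTG stood in the Cyp1a1 window at -54 to -50 and was not found in that of Cyp1a2. The Cyp2c70 window held CAAAGTCCA at -64 to -56 and TATAAA on the opposite strand at -29 to -24. The Cyp2c50 window held CCAAT at -12 to -8 and its complement at -212 to -208, and no match to the other letters.

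Over all members with a promoter, TATAAA was found in 15 of 30 (50.0%), against 14.3% of 27025 genes. CAAAGTCCA was found in 4 of 30 (13.3%), in Cyp2c65, Cyp2c68, Cyp2c70 and Cyp3a16, against 0.451%. In Cyp2c68 this match overlapped a CCAAT match. CCAAT was found in 12 of 30, against 37.5%, and GCGTG in 5 of 30 (16.7%) against 30.9%. CACGTG (E-box) was found in Cyp2j6 only, against 6.86% of all genes. TTGCGCAA (C/EBP) was found in 0 of 30, against 0.185%. Promoters of P450 genes that arose by gene duplication share sequence, so these shares are not independent, and a match of letters is a description of the window and no more.

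**Figure D1:**
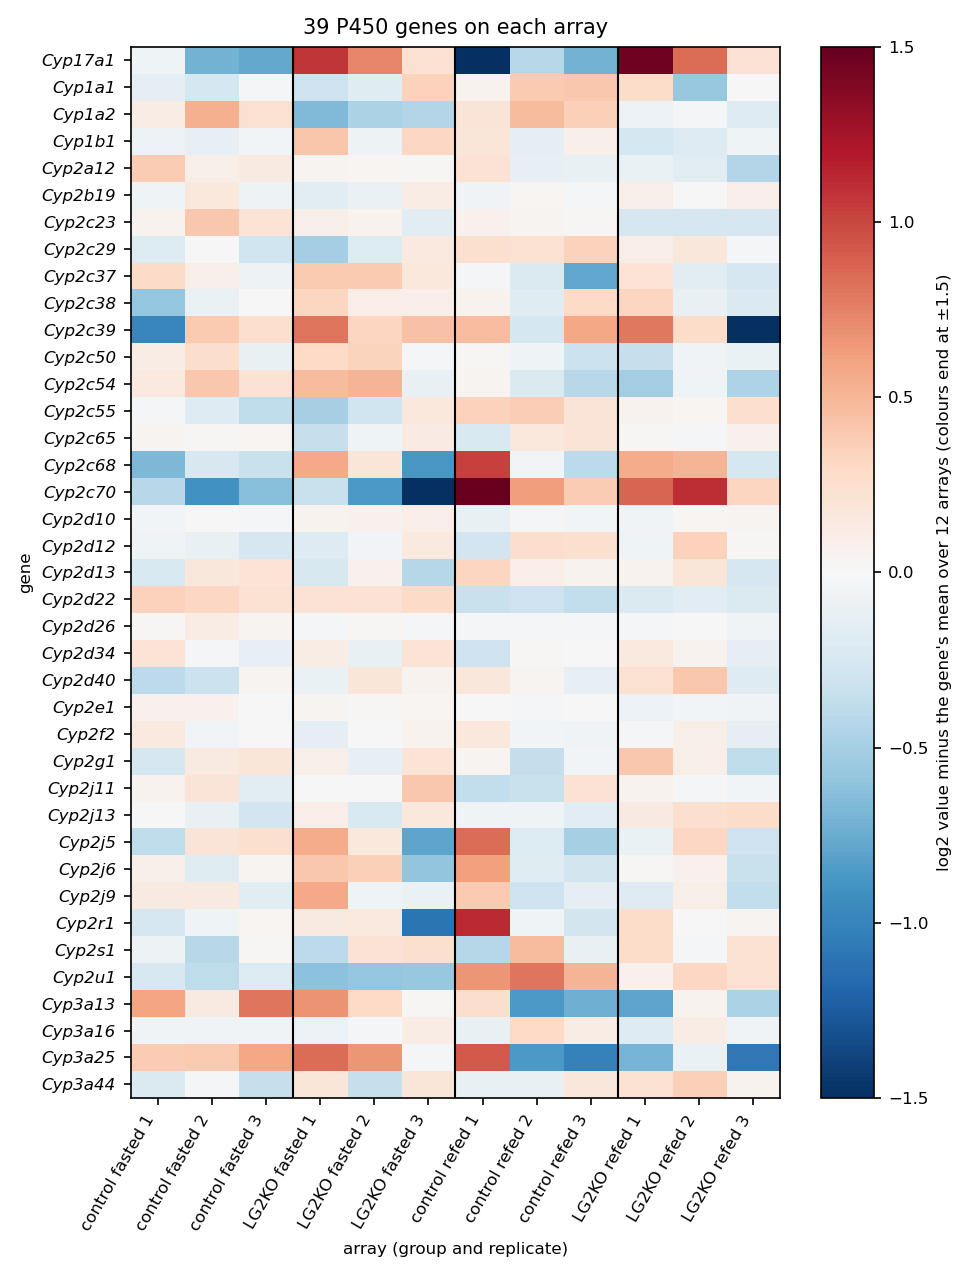
Colour gives the log2 value of each P450 gene (rows, 39) on each array (columns, 12) minus the gene's mean over all arrays, with colours ending at ±1.5. Cyp17a1 is red on the LG2KO arrays and blue on most control arrays, and Cyp2c70 and Cyp2u1 are redder on the refed arrays, while Cyp2e1, Cyp2d10 and Cyp2d26 are pale throughout.

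LG2KO against control asks what differs between LG2KO and control livers in each feeding state, with genotype and tamoxifen not separable. Most P450 genes differed little, as did most genes on the array. In refed livers 37 of 39 members (94.9%) lay within 0.5 of 0 on the log2 scale, against 96.9% of all genes, and the member median was -0.05. In fasted livers 36 of 39 (92.3%) did, against 98.3%, and the median was 0.04. All 15 members with a mean signal at or below that of the median gene lay within 0.5 in both states. Of the 24 brighter members 22 did so in refed and 21 in fasted livers. The 3 exceptions over both states were Cyp17a1 in both, Cyp2c39 in both and Cyp1a2 when fasted. None of 39 members passed in refed livers, where 0.379% of all genes did, and 6 members had an unadjusted p below 0.05 (limma), against 9.13% of all genes. In fasted livers 1 of 39 passed, Cyp1a2, against 0.396% of all genes in either direction and 0.0879% among falls. There 6 members had an unadjusted p below 0.05, against 5.20% of all genes. Averaged over both feeding states 3 passed against 1.02% of all genes, Cyp17a1 higher (0.737%) and Cyp1a2 and Cyp2u1 lower (0.280%). Without the pair of arrays apart the counts were 0, 1 and 2, with 0.286%, 0.511% and 1.29% of all genes passing, and Cyp2u1 then missed (limma, adjusted p = 0.052).

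**Figure D2:**
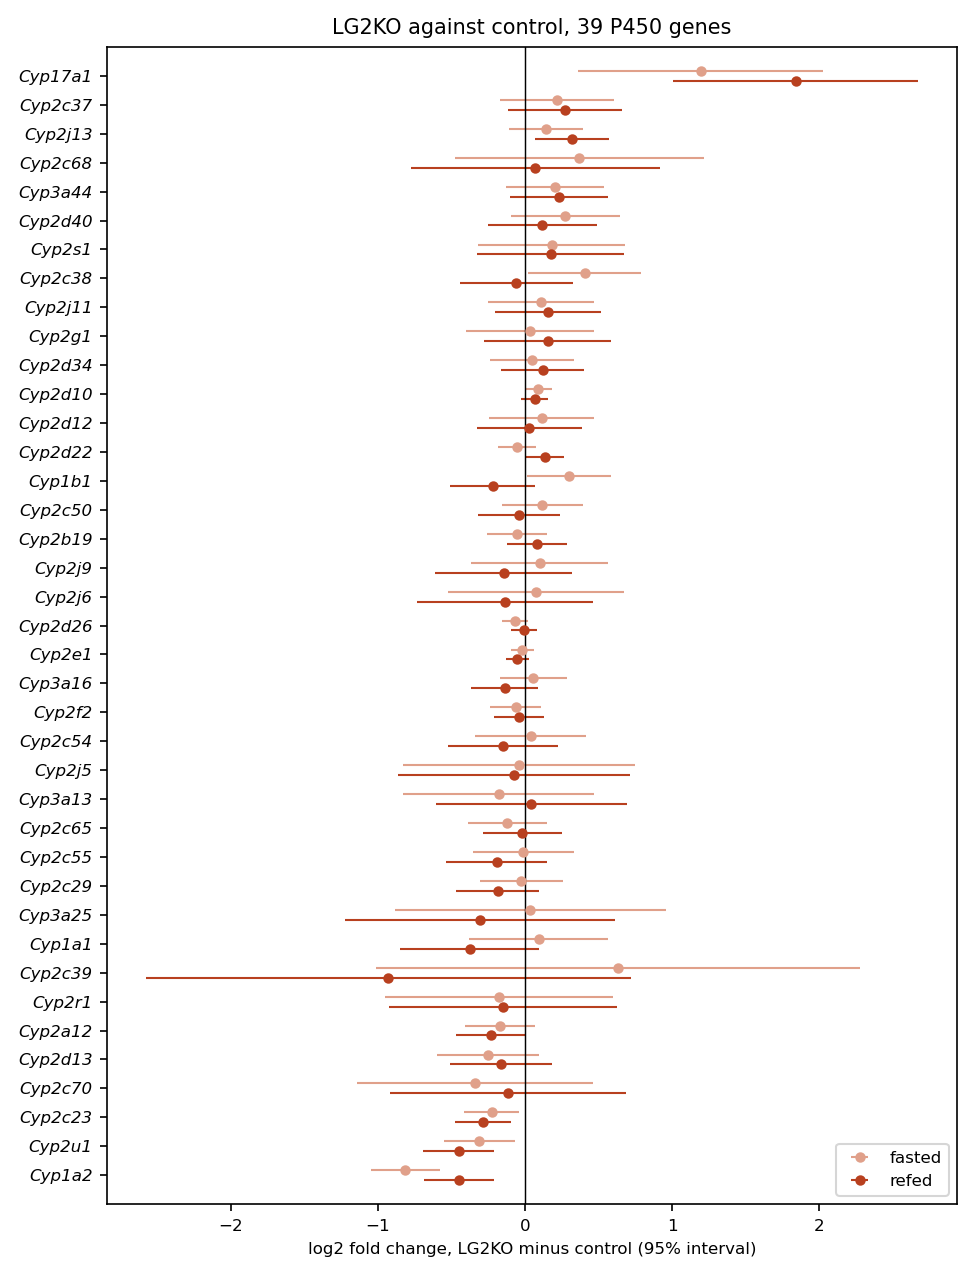
Points give the log2 fold change of LG2KO minus control for each of the 39 genes, pale for fasted and dark for refed livers, and bars the 95% interval from limma. Cyp17a1 stands to the right (1.19 fasted, 1.84 refed) and Cyp1a2 to the left (-0.81 fasted, -0.45 refed), and Cyp2c39 has the widest bars.

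Cyp1a2, the hepatocyte enzyme that oxidises caffeine and aromatic amines, read 11.85, 12.26 and 11.96 on the control fasted arrays and 11.08, 11.26 and 11.30 on the LG2KO fasted arrays. In refed livers it read 11.93, 12.21 and 12.09 in controls and 11.64, 11.70 and 11.54 in LG2KO. Each of the 6 LG2KO values lay below every control value. In fasted livers it fell by 0.81 ± 0.11 (SE) on the log2 scale, which is 1.76-fold (limma, adjusted p = 0.00515). The refed difference was -0.45 ± 0.11 (adjusted p = 0.138), and the mean of both was -0.63 ± 0.08 (adjusted p = 0.00163). The fasted and the mean call passed without each array in turn, at differences of -0.90 to -0.69 and -0.68 to -0.57. The genotype differences of both feeding states were not distinguishable by the interaction test (0.36 ± 0.15, adjusted p = 0.99). In bulk liver, fewer cells of a kind and less RNA per cell cannot be told apart.

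The other family 1 genes did not pass. Cyp1a1, the classic gene induced through AHR, read 4.79 to 5.02 in fasted controls, 4.74 to 5.39 in fasted LG2KO, 5.10 to 5.46 in refed controls and 4.48 to 5.32 in refed LG2KO. These ranges overlapped between genotypes in both states. Cyp1b1, which is mainly made outside the liver, ranged from 3.77 to 4.46 over all arrays. Its genotype difference was 0.30 when fasted and -0.22 when refed. The receptor gene Ahr itself was at -0.45 ± 0.28 fasted and -0.64 ± 0.28 refed in LG2KO, and passed in neither (adjusted p = 1 and 0.517).

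Cyp17a1 makes androgen precursors in the gonads and is also transcribed in mouse liver. It read 9.57, 8.92 and 8.87 in fasted controls and 10.71, 10.36 and 9.86 in fasted LG2KO. In refed livers it read 7.75, 9.21 and 8.92 in controls and 11.09, 10.47 and 9.85 in LG2KO. All 6 LG2KO arrays lay above all 6 control arrays, with the lowest at 9.85 and the highest control at 9.57. The mean difference was 1.52 ± 0.27, or 2.86-fold higher in LG2KO (limma, adjusted p = 0.0201). Taken alone, the refed difference of 1.84 ± 0.38 (adjusted p = 0.0794) and the fasted one of 1.19 ± 0.38 (adjusted p = 0.495) did not pass. Without the pair of arrays apart they were 1.40 and 1.42, and the mean was 1.41 ± 0.21 (adjusted p = 0.00907). The mean call ended without LG2KO refed replicate 2, control fasted replicate 2 or 3, or LG2KO fasted replicate 1 or 2, where the difference was 1.30 to 1.67 over all left-out arrays and the adjusted p at most 0.0676.

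Cyp2u1, a hydroxylase of long-chain fatty acids, read 7.37, 7.23 and 7.41 in fasted controls and 7.0, 7.04 and 7.05 in fasted LG2KO. In refed livers it read 8.28, 8.42 and 8.12 in controls and 7.69, 7.92 and 7.85 in LG2KO. Within each feeding state the genotypes did not overlap. The mean genotype difference was -0.38 ± 0.08 (limma, adjusted p = 0.0418), with -0.31 ± 0.11 fasted and -0.45 ± 0.11 refed, neither of which passed. This call held without 1 array, control refed replicate 3, and missed without each of the other 11 (adjusted p up to 0.116). A dimmer probe set of the gene was at -0.14 ± 0.12 (adjusted p = 0.891 over all 45101 probe sets, of which 0.521% passed).

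The arrays of both genotypes did not overlap for 8 members after refeeding, with 3 above and 5 below controls (15.4% of all genes, 10.3% higher and 5.19% lower). In fasted livers this held for 6 members, 3 in each direction (10.8% of all genes, 4.67% higher and 6.11% lower). In both states Cyp17a1 was above without overlap (1.44% of all genes), and Cyp1a2 and Cyp2u1 were below (0.693%). Cyp2c23, an arachidonic acid epoxygenase, was at -0.23 ± 0.09 fasted and -0.29 ± 0.09 refed. Its mean of -0.26 ± 0.06 did not pass (limma, adjusted p = 0.0832). In refed LG2KO livers it read 11.58 on each of the 3 arrays, below the 11.84 to 11.89 of refed controls. Over the 39 members the refed and fasted genotype differences, which share no array, correlated at 0.555 (Pearson) and 0.394 (Spearman), with the same sign in 26, and over all genes at 0.352. These are descriptions, since paralogous genes can share probe signal.

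Refeeding against fasting asks which P450 genes follow the meal. In controls 3 of 39 members passed against 6.46% of all genes. Cyp2c70 and Cyp2u1 rose (3.29%) and Cyp2d22 fell (3.17%). In LG2KO livers 5 of 39 passed against 7.05% of all genes, with the same directions for these 3, a rise of Cyp1a2 and a fall of Cyp2c54. Of all genes 4.66% rose and 2.40% fell there. The member medians were 0.03 in controls and -0.02 in LG2KO, against -0.01 and 0.01 over all genes. None of 39 passed the interaction of genotype and feeding, which 0.00550% of all genes passed. An unadjusted interaction p below 0.05 (limma) was reached by 3 members, Cyp1a2, Cyp1b1 and Cyp2d22, against 4.73% of all genes. The feeding responses of both genotypes correlated at 0.748 (Pearson) and 0.633 (Spearman) over the 39 members, which share no array, with the same sign in 29, and over all genes at 0.684.

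**Figure D3:**
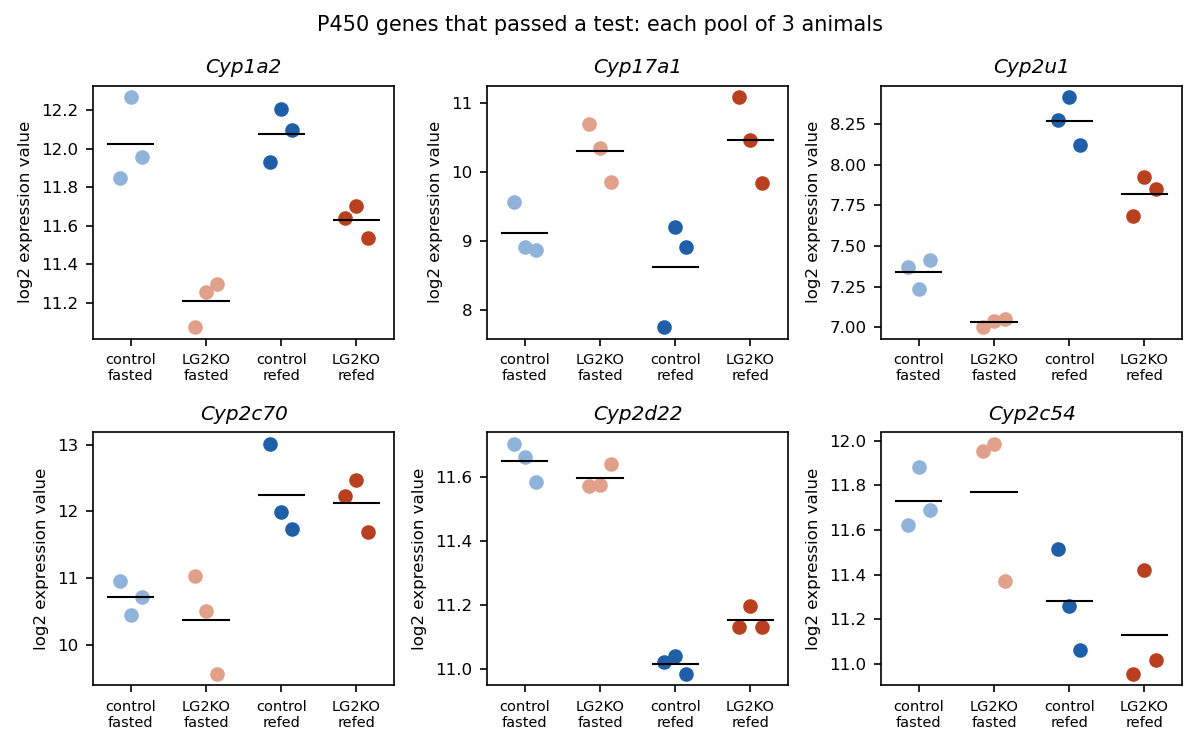
Each panel plots the log2 expression value of 1 of the 6 genes that passed in any comparison. Points are pools of 3 animals and lines group means, with axes that do not start at 0. Cyp1a2 and Cyp17a1 separate by genotype, Cyp2c70 and Cyp2d22 by feeding, and Cyp2u1 by both.

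Cyp2c70, which makes the muricholic acids of the mouse bile acid pool, had the largest feeding difference among the members in each genotype on all 12 arrays. Without the pair of arrays apart that of Cyp3a25 was larger in both genotypes, at -1.39 and -1.37, and that of Cyp3a13 in controls, at -1.31. It read 10.95, 10.45 and 10.72 in fasted controls against 13.01, 11.99 and 11.74 in refed controls. In LG2KO it read 11.03, 10.51 and 9.57 fasted against 12.23, 12.48 and 11.69 refed. All 6 refed arrays lay above all 6 fasted arrays. The gene rose by 1.54 ± 0.37 in controls (2.91-fold, limma, adjusted p = 0.0258) and by 1.76 ± 0.37 in LG2KO (3.40-fold, adjusted p = 0.0119). Both arrays that stand apart carried its extreme values, 13.01 on control refed replicate 1 and 9.57 on LG2KO fasted replicate 3. Without them the rises were 1.16 ± 0.22 (adjusted p = 0.00588) and 1.36 ± 0.22 (adjusted p = 0.00196). In controls the call ended without control refed replicate 1 or 2 or any of the 3 control fasted arrays (adjusted p at most 0.102, rises of 1.16 to 1.79), and in LG2KO without LG2KO refed replicate 2 (adjusted p = 0.06). The genotypes differed by -0.34 ± 0.37 fasted and -0.12 ± 0.37 refed, which did not pass. Without the pair both differences were positive, at 0.06 ± 0.22 and 0.27 ± 0.22, and did not pass either (limma, adjusted p = 0.933 and 0.779).

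Cyp2u1 rose on refeeding by 0.93 ± 0.11 in controls (1.91-fold, limma, adjusted p = 0.000297) and by 0.79 ± 0.11 in LG2KO (1.73-fold, adjusted p = 0.000989). Refed and fasted arrays did not overlap, as the values above show, and both calls held without each array in turn. The dimmer probe set of Cyp2u1 rose as well, by 0.84 ± 0.17 and 0.91 ± 0.17 (adjusted p = 0.0127 and 0.00803 over all probe sets, of which 3.84% and 3.99% passed).

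Cyp2d22, a member of the subfamily known for oxidising basic drugs, moved the other way. It read 11.70, 11.66 and 11.58 in fasted controls and 11.02, 11.04 and 10.98 in refed controls. In LG2KO it read 11.57, 11.57 and 11.64 fasted and 11.13, 11.20 and 11.13 refed. Groups were tight, with SDs of 0.03 to 0.06, and all refed arrays lay below all fasted arrays. It fell by 0.63 ± 0.06 in controls (1.55-fold, limma, adjusted p = 5.17e-05) and fell by 0.44 ± 0.06 in LG2KO (1.36-fold, adjusted p = 0.000733). Both calls held without each array in turn. Its other probe set fell by 0.73 ± 0.08 and fell by 0.68 ± 0.08 (adjusted p = 0.000135 and 0.00027 over all probe sets). The difference between the falls of both genotypes, 0.19 ± 0.08, did not pass (adjusted p = 0.99), and on the other probe set it was 0.05 ± 0.11.

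Cyp1a2 rose on refeeding in LG2KO by 0.42 ± 0.11 (limma, adjusted p = 0.0372) and was at 0.05 ± 0.11 in controls (adjusted p = 0.91). Refed LG2KO livers thus lay between fasted LG2KO livers and both control groups. The rise passed without LG2KO fasted replicate 3, and missed without each of the other 5 arrays of the comparison (adjusted p at most 0.154). As given above, the interaction test did not separate the genotypes.

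Cyp2c54, an epoxygenase of linoleic and arachidonic acid, fell by 0.64 ± 0.17 in LG2KO on refeeding (1.56-fold, limma, adjusted p = 0.0438) and was at -0.45 ± 0.17 in controls (adjusted p = 0.182). It read 11.95, 11.99 and 11.37 in fasted LG2KO and 10.96, 11.42 and 11.02 in refed LG2KO, so that the groups overlapped at LG2KO fasted replicate 3. Without that array and control refed replicate 1 the falls were 0.84 ± 0.13 in LG2KO (adjusted p = 0.00139) and 0.57 ± 0.13 in controls (adjusted p = 0.0137). The LG2KO call ended without LG2KO refed replicate 1 or 3 or LG2KO fasted replicate 1 or 2 (adjusted p at most 0.176). In RefSeq order Cyp2c37, Cyp2c54, Cyp2c50 and Cyp2c70 follow each other on chromosome 19. Their refeeding differences were -0.44, -0.45, -0.21 and 1.54 in controls and -0.38, -0.64, -0.37 and 1.76 in LG2KO. Of these 4 neighbours, Cyp2c70 alone had positive differences. Cyp2c37, Cyp2c50 and Cyp2c54 encode closely related epoxygenases, and the files used here hold no probe sequences, so how far their signals are separate was not tested.

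**Figure D4:**
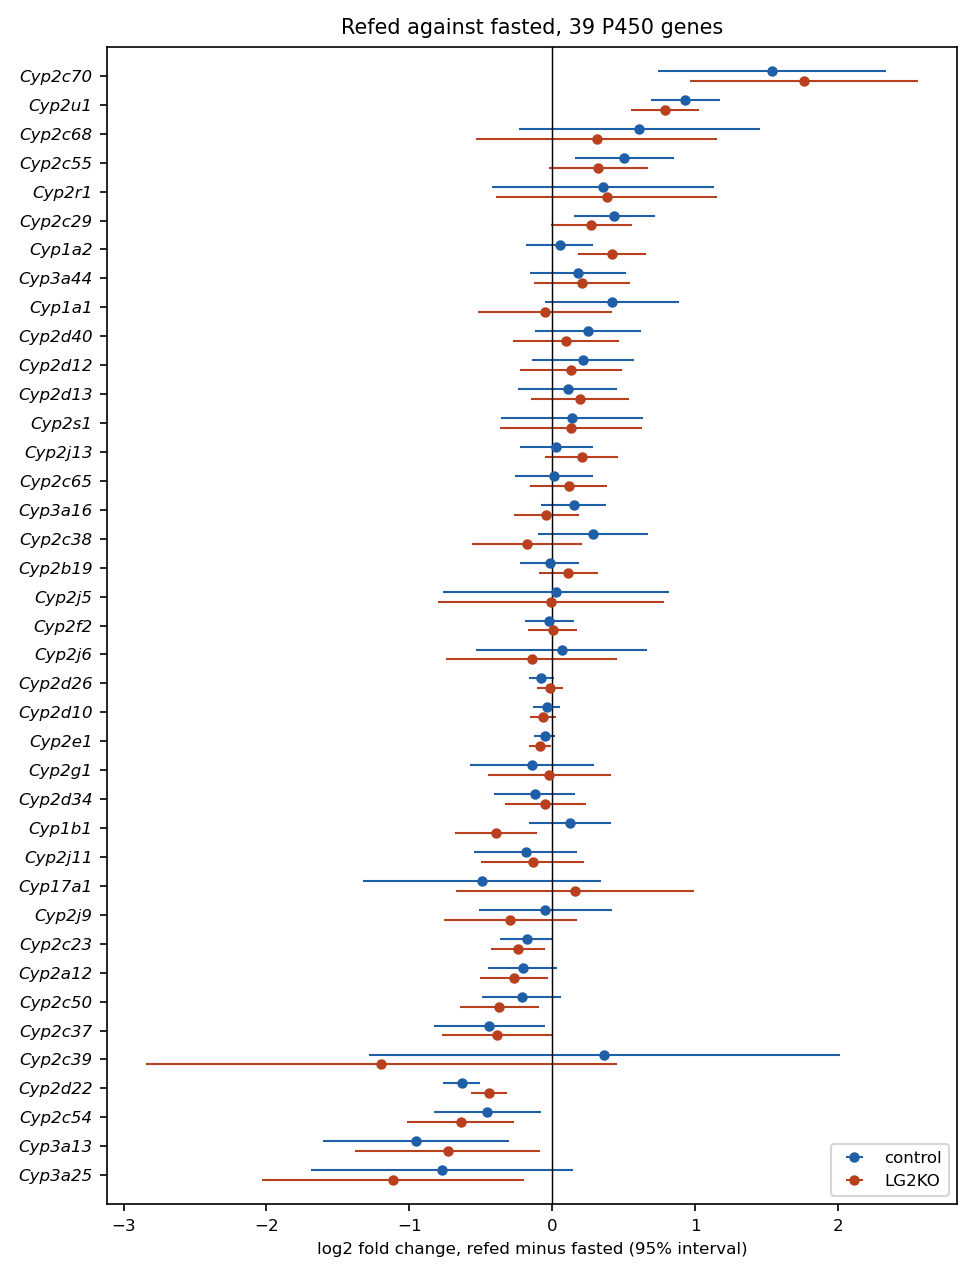
Points give the log2 fold change of refed minus fasted livers for each of the 39 genes, blue in controls and red in LG2KO, and bars the 95% interval from limma. Cyp2c70 and Cyp2u1 lie to the right in both genotypes and Cyp2d22, Cyp2c54, Cyp3a13 and Cyp3a25 to the left, with narrow bars for Cyp2d22 (-0.63 and -0.44) and wide ones for Cyp3a25 (-0.77 and -1.11).

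The feeding counts depended on the pair of arrays apart. Without them 9 of 39 members passed in controls against 12.1% of all genes, 4 higher (6.33%) and 5 lower (5.77%). In LG2KO 12 passed against 17.5%, 5 higher (7.74%) and 7 lower (9.78%). All members that passed on 12 arrays passed again. Among those added in both genotypes, Cyp3a25, a hepatic steroid and drug hydroxylase, was at -1.39 ± 0.21 in controls and -1.37 ± 0.21 in LG2KO (limma, adjusted p = 0.00131 in LG2KO). On 12 arrays it had been at -0.77 ± 0.42 and -1.11 ± 0.42. Cyp3a25 read 11.45, 11.47 and 11.66 in fasted controls and 11.99, 10.21 and 10.06 in refed controls, where 11.99 is the array apart. Its relative Cyp3a13 was at -1.31 ± 0.23 and -0.89 ± 0.23 without the pair (adjusted p = 0.00405 and 0.0232). Cyp2c29, an abundant hepatic epoxygenase, was at 0.45 ± 0.10 and 0.44 ± 0.10 (adjusted p = 0.0149 and 0.0126), and Cyp2c55 at 0.49 ± 0.13 and 0.51 ± 0.13. Cyp2c37 and Cyp2c54 were added in controls only, and Cyp2c23, Cyp2c50 and Cyp2j6 in LG2KO only, all lower when refed. Why this pair of arrays stands apart was not tested.

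Refed and fasted arrays did not overlap for 9 members in controls, 5 higher and 4 lower (20.5% of all genes, 9.64% higher and 10.8% lower). In LG2KO this held for 10 members, 3 higher and 7 lower (22.5% of all genes, 14.1% higher and 8.38% lower). In both genotypes Cyp2c70 and Cyp2u1 were above without overlap (5.50% of all genes), and Cyp2d22 and Cyp2e1 were below (4.24%). Cyp2e1, the ethanol- and acetone-oxidising enzyme that fasting is known to raise, read 13.87, 13.87 and 13.82 in fasted controls and 13.81, 13.79 and 13.81 in refed ones. In LG2KO it read 13.85, 13.82 and 13.84 fasted and 13.72, 13.77 and 13.75 refed. The differences of -0.05 ± 0.04 and -0.09 ± 0.04 did not pass (limma, adjusted p = 0.55 and 0.193). The signal of Cyp2e1 lay near the top of the scale, whose highest value on any array was 14.57, and whether its response was compressed there was not tested. The same limit holds for Cyp2d10, Cyp2d26 and Cyp2f2, described below. The genotype interval of Cyp2e1 ran from -0.10 to 0.06 when fasted and from -0.13 to 0.02 when refed.

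Cyp2c was the subfamily with the most members, 11 in all. In refed LG2KO against control 9 of the 11 were negative, with a median of -0.12, and in the fasted state 5 were, with a median of 0.04, and none passed in either. Of all 18194 genes 8020 were negative refed and 9351 fasted. Without the pair of arrays apart 7 of the 11 were negative refed, with a median of -0.06, and 4 fasted, with a median of 0.23, against 9240 and 9989 of all genes. Cyp2c39 was the most variable member. It read 10.84, 10.33 and 6.97 in refed LG2KO, a range of 3.87, while the other 9 arrays spanned 9.08 to 10.86. Its 95% interval reached 1.65 to either side of each difference, against a median of 0.35 over the members. Its neighbour Cyp2c38, with a closely related sequence, read 10.47, 10.05 and 9.94 on those 3 arrays. Cyp2c68 followed the arrays apart, at 11.81 on control refed replicate 1 and 9.91 on LG2KO fasted replicate 3, the highest and the lowest of its 12 values. A list of arachidonic and linoleic acid epoxygenases held 10 measured genes of the Cyp2c and Cyp2j subfamilies. Cyp2c23 was not counted among them, because the list names it by its older symbol Cyp2c44, which matched no measured gene. Cyp2j11 and Cyp2j13 were not listed. Between genotypes 0 of the 10 passed, against 0.379% (refed) and 0.396% (fasted) of all genes. On refeeding 0 passed in controls and 1, Cyp2c54, in LG2KO, against 6.46% and 7.05%. Without the pair 4 of the 10 passed on refeeding in controls (Cyp2c29, Cyp2c37, Cyp2c54 and Cyp2c55), against 12.1% of all genes. In LG2KO 5 did (Cyp2c29, Cyp2c50, Cyp2c54, Cyp2c55 and Cyp2j6), against 17.5%, and 0 passed between genotypes. Cyp2c23, not counted among the 10, was at -0.31 ± 0.08 on refeeding in LG2KO without the pair and passed (limma, adjusted p = 0.0258).

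Of the 7 Cyp2d members, Cyp2d22 alone gave a call. Cyp2d10 ranged from 13.54 to 13.75 over the 12 arrays, and Cyp2d26 from 13.40 to 13.56. Cyp2d10 was 0.08 ± 0.03 higher in LG2KO on average, which did not pass (limma, adjusted p = 0.437). Cyp2a12, a steroid hydroxylase, was at -0.17 ± 0.11 fasted and -0.23 ± 0.11 refed in LG2KO and at -0.20 and -0.27 on refeeding, none passing. Cyp2f2, which activates naphthalene and is a gene of periportal hepatocytes, ranged from 13.28 to 13.56, and its genotype interval ran from -0.24 to 0.11 when fasted and from -0.21 to 0.13 when refed.

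The 5 Cyp2j members, which oxidise arachidonic acid, gave no call on 12 arrays. Cyp2j5 read 10.79 on control refed replicate 1 and 9.17 on LG2KO fasted replicate 3, its highest and lowest values, and 9.46 to 10.51 elsewhere. Cyp2r1, a vitamin D hydroxylase, showed the same, at 5.65 and 3.44 against 4.27 to 4.82 elsewhere. The 4 Cyp3a members, of the subfamily that handles the widest range of drugs, did not pass either on 12 arrays. Cyp3a16 and Cyp3a44 ranged from 2.10 to 2.59 and from 3.72 to 4.43. Cyp2b19, Cyp2g1 and Cyp2s1, known mainly from skin, olfactory tissue and other epithelia, ranged from 2.82 to 3.15, 5.77 to 6.56 and 4.88 to 5.78, and none passed.

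Genes that serve P450 enzymes were read from a list of electron transfer partners, haem synthesis enzymes and regulators, of which 28 of 33 were measured. Between genotypes none passed in refed livers (0.379% of all genes) and 1 in fasted livers (0.396%). This was the liver factor gene Foxa3, which fell by 0.68 ± 0.13 in LG2KO (limma, adjusted p = 0.0379). On refeeding 3 rose and 4 fell in controls, where 3.29% of all genes rose and 3.17% fell, and 3 rose and 3 fell in LG2KO, where 4.66% rose and 2.40% fell. With the pair of arrays apart left out, 3 rose and 3 fell in controls, Alas1 no longer among them, and 3 rose and 5 fell in LG2KO, and Cyb5b was lower in refed LG2KO. Cyb5b, a cytochrome b5, rose by 1.56 ± 0.18 and 1.55 ± 0.18 (adjusted p = 0.000196 and 0.000258). Alas1, the rate-limiting enzyme of haem synthesis, fell by 0.44 ± 0.10 in controls and fell by 0.50 ± 0.10 in LG2KO (adjusted p = 0.0234 and 0.0108). Nr1i3, which encodes CAR, fell by 0.55 ± 0.09 and fell by 0.36 ± 0.09 (adjusted p = 0.00232 and 0.0257). Nr1i2, which encodes PXR, fell by 0.42 ± 0.11 in LG2KO (adjusted p = 0.0311) and was at -0.36 ± 0.11 in controls (adjusted p = 0.0732). Hnf4a fell by 0.31 ± 0.08 in controls (adjusted p = 0.0399) and was at -0.14 ± 0.08 in LG2KO (adjusted p = 0.417).

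Zonal genes that are no P450 were counted beside the members. Of 14 measured pericentral genes 11 were negative in LG2KO in each feeding state, with medians of -0.14 refed and -0.15 fasted. Of all 18194 genes 8020 were negative refed and 9351 fasted. With the pair of arrays apart left out, 11 of the 14 were negative refed and 9 fasted, with medians of -0.18 and -0.06. Of all genes 9240 and 9989 were negative then. On all 12 arrays Rhbg was higher in refed LG2KO livers (0.379% of all genes passed). None of the 14 passed in fasted livers (0.396%), where Cyp1a2 fell. On refeeding 2 rose in controls and 3 in LG2KO, against 3.29% and 4.66% of all genes. Of 12 measured periportal genes Asl was higher in refed LG2KO livers and none passed in fasted ones, against 0.379% and 0.396% of all genes. On refeeding 4 fell in controls and 5 in LG2KO, against 3.17% and 2.40% of all genes. Without the pair of arrays apart 3 pericentral genes rose on refeeding in controls and 4 in LG2KO, against 6.33% and 7.74% of all genes. Of the periportal genes 7 fell then in each genotype, against 5.77% and 9.78%. Asl no longer passed in refed livers, and the pericentral gene Gstm3 was lower in refed LG2KO, where 0.286% of all genes passed. The part of zonation in the P450 values was not tested. Of 6 genes listed as female-biased in mouse liver, 3 were measured by a probe set with 1 symbol, namely Cyp17a1, Cyp3a16 and Cyp3a44. Cyp2a4, also listed, was read only by a probe set shared with Cyp2a5. In LG2KO against control that probe set was at -0.22 fasted, -0.14 refed and -0.18 in the mean, none of which passed. Cyp17a1 passed in the mean over both states, and the mean differences of Cyp3a16 and Cyp3a44 were -0.04 and 0.22. Cyp3a16 and Cyp3a44 read low, at 2.10 to 2.59 and 3.72 to 4.43, where the lowest value on any array was 1.77. The list did not include Cyp2b9, Cyp2b13, Cyp3a41a or Cyp3a41b, so its counts do not cover them. Among the P450 genes left out by the rule, Cyp2b9 rose by 5.92 refed and 5.89 fasted, far beyond any member. Cyp2b10, left out likewise, rose by 1.78 ± 0.32 in refed LG2KO (limma, adjusted p = 0.0428) and by 1.32 ± 0.23 in the mean over both states (adjusted p = 0.0170). Without the pair these were 1.65 ± 0.33 (adjusted p = 0.0734) and 1.15 ± 0.24 (adjusted p = 0.0423).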

How the data were processed

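Liver RNA was measured on 12 Affymetrix arrays. The deposited values are log2 expression values, made by the authors with RMA per the submitters' processing notes, and no intensity files were used. They were analysed as deposited. Of 45101 probe sets, the platform annotation gave 34958 with 1 symbol and 932 with several, and did not list 9211. The brightest probe set of each symbol gave 18194 genes. limma 3.58.1 in R 4.3.3 (lmFit and eBayes with an intensity trend) fitted 1 mean per group to all 12 arrays which left 8 degrees of freedom. All tests were two-sided, and p-values were Benjamini-Hochberg adjusted over all genes within each of 6 comparisons. The fit was tested on simulated data. Nothing says how the pools were formed, so p-values measure only the spread between these pools, and precision is limited by how few arrays there are. Background is not known on these arrays, so levels of different genes were not compared beyond a split of the members at the median gene.

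Members and gene lists were chosen with earlier results of these data known. Members named are those that passed, those without overlap in both comparisons of a kind, the brightest of each subfamily and Cyp17a1, 18 in all. Other members named were chosen after their values were seen. Lists cover P450 partners, pericentral, periportal, epoxygenase and female-biased genes, and markers of cell types. Replicate numbers of the labels did not pair the arrays. Alternatives concerned the prior, array weights, the block, dim genes, probe sets, centring and left-out arrays. Promoters were read from RefSeq with Python 3.11.15, and figures were drawn with matplotlib 3.10.9.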

Additional observations from a re-analysis of the deposited data

Results flagged for a closer look

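A probe set that the platform assigns to both Cyp3a41a and Cyp3a41b, and that is therefore no member, gave a signal on LG2KO arrays above that on control arrays. It read 9.68, 6.75 and 4.63 on the LG2KO fasted arrays and 9.36, 7.47 and 7.56 on the LG2KO refed arrays, against 3.58 to 4.09 on the 6 control arrays. The mean difference was 3.73 on the log2 scale, higher on 6 of 6 LG2KO arrays than on any control array (limma, adjusted p = 0.0203 over 45101 probe sets, of which 0.521% passed). The refed difference was 4.30 (adjusted p = 0.102) and the fasted one 3.17 (adjusted p = 0.452). The mean call ended with robust estimation (adjusted p = 0.0954) and without control refed replicate 2, LG2KO refed replicate 1, control fasted replicate 2 or 3 or LG2KO fasted replicate 2 (adjusted p at most 0.0632). The probe set was singled out after its values were seen.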

How the results depend on the processing

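None of the single-gene differences recomputed under each alternative changed sign. Others that did not pass could, as those of Cyp2c70 between genotypes did without the pair of arrays apart (0.06 fasted and 0.27 refed). Array weights raised the number of members that passed to 3 in LG2KO against control refed, 2 fasted, 8 on refeeding in controls and 12 in LG2KO, while the number of all 18194 genes that passed went from 69 to 180, 72 to 203, 1176 to 2454 and 1283 to 3578. Without the pair of arrays apart the refeeding counts were 9 and 12, with 2202 and 3187 of all genes. Without the intensity trend 3 members passed on refeeding in LG2KO, with 1249 of all genes. Leaving out 1 array gave 3 to 8 there, with 3 without LG2KO refed replicate 1, 2 or 3 or LG2KO fasted replicate 1 and 8 without LG2KO fasted replicate 3, and 2 to 4 in controls. Of all genes 697 to 943 passed in the cases with 3 members and 1507 in the case with 8. It gave 1 to 3 for the mean genotype difference, and the 1 was Cyp1a2, without LG2KO refed replicate 2, control fasted replicate 2 or 3, or LG2KO fasted replicate 1 or 2. It left 0 in refed livers, 1 in fasted livers and 0 in the interaction. The cause of these shifts was not tested. All 106 medians moved by less than the spread between replicates, and 21 of them, all near 0, had the other sign. Same-numbered arrays correlated in their deviations at -0.42 to 0.71, with 5 of 18 pairs over 0.1, so the numbers were not taken as a pairing. With the replicate block 0 members passed in refed livers, 1 in fasted livers, 4 on refeeding in controls, 5 in LG2KO, 0 in the interaction and 2 for the mean, with 53, 67, 1165, 1291, 6 and 144 of all genes in that order; in the mean Cyp2u1 missed (limma, adjusted p = 0.0718). With 3 pools a group, the 95% interval of a difference reached 0.35 to either side for the median member.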

Other observations

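A probe set shared by Cyp2a4 and Cyp2a5, steroid and coumarin hydroxylases, lay at 12.12 to 13.33 on control arrays and at 11.88 to 13.01 on LG2KO arrays. It fell on refeeding by 0.89 in controls (limma, adjusted p = 0.00655 over all probe sets, of which 3.84% passed) and fell by 0.81 in LG2KO (adjusted p = 0.0126, 3.99% passed). The LG2KO call ended without LG2KO refed replicate 2 or 3 (adjusted p at most 0.0671), and the control call held without each array in turn. The probe set was chosen after its values were seen.

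The sex of the mice is not in the labels used here. Xist lay at 4.31 to 4.55 on the control arrays and at 4.45 to 4.63 on the LG2KO arrays, and the Y-linked Eif2s3y at 5.09 to 6.99 and at 4.71 to 6.65. The Y-linked Kdm5d lay at 3.87 to 4.21 and at 3.85 to 4.19, and Uty at 2.96 to 3.24 and at 3.02 to 3.27. None of these passed between genotypes in the mean (limma, adjusted p = 0.859, 0.905, 0.890 and 0.705 in that order). The sex of the pools was not settled from these values.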
